A study of Rattus norvegicus with 4 samples.

Results

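The 10 genes described here surround GPNMB, a transmembrane glycoprotein of lysosomes and phagosomes, and the clearance of dead cells and lipid. They were taken as a named list of Gpnmb, the TAM receptors Axl, Mertk and Tyro3, their ligands Gas6 and Pros1, the bridging protein Mfge8, and the lipid handling genes Apoe, Abca1 and Lrp1. All 10 had a row among the 17949 genes of the count table, and all 10 were among the 12446 genes with enough reads to be tested. Gpnmb, Gas6 and Apoe were chosen by their higher read counts in the Lenti-AS than the Lenti-GFP samples of this same comparison, so their values are given as a description with no test. The 7 others were listed for what their proteins do.

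TAM receptors are receptor tyrosine kinases that recognise dying cells and membrane debris indirectly. GAS6 and protein S bind phosphatidylserine exposed on the debris with one end and the receptor with the other, and the cell then engulfs what is bound. The cholesterol taken up is passed to apolipoprotein E by the exporter ABCA1. Schwann cells, the myelinating glia of peripheral nerves, clear part of their own myelin after nerve injury, and Axl and Mertk are known to take part in that process.

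RNA-seq was carried out on cultured rat Schwann cells infected for 48 h with a lentivirus. In Lenti-AS cells (n = 2) the virus drove the antisense RNA of the Egr2 promoter (Egr2-AS), and in Lenti-GFP cells (n = 2) it carried the GFP control. All 4 cultures grew with 10% FBS, 4 µM forskolin and 5 ng/ml heregulin-β1, so the controls too were kept under mitogens. The RNA overexpressed was not the only difference between the groups, as the antisense virus carried the red reporter DsRed and the control virus AcGFP1. The labels name biological replicates but not whether each came from its own culture day, so the p-values measure the spread between these samples. In bulk RNA, fewer expressing cells and less RNA per cell cannot be told apart.

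The samples held 74024323 to 96185890 assigned reads, and single members had between 930 and 108290 reads in a sample. The Schwann cell markers with a row, 9 of 10 listed, were all above 1 CPM (a gene's share of the assigned reads, with library sizes scaled by TMM factors) in every sample, and summed to 6580 and 6545 CPM in Lenti-GFP and to 8375 and 7122 CPM in Lenti-AS cells. Of 18 macrophage markers, 16 were under 1 CPM in every sample, and their summed level was 4.19 to 4.31 CPM in Lenti-GFP and 4.94 to 5.45 CPM in Lenti-AS cells. The defining macrophage genes C1qa, C1qb and C1qc had at most 2 reads each, while Cd68 measured 1.18 to 1.84 CPM and Csf1r 1.87 to 2.27 CPM. Fibroblast markers summed to 4265 and 3819 CPM in Lenti-GFP and to 4679 and 2821 CPM in Lenti-AS cells. Of these, Col3a1 measured 2198 to 3261 CPM, Col1a1 290 to 2131 CPM and Col1a2 120 to 340 CPM. Fbln1 measured 5.43 to 6.77 CPM and Pdgfra 3.09 to 4.07 CPM, whereas Dcn and Lum had at most 3 reads. Endothelial markers summed to 25.9 and 25.6 CPM against 20.3 and 19.4 CPM. One library stood apart, since globin genes summed to 3001 CPM in Lenti-AS replicate 2 against 3.09 to 6.61 CPM elsewhere. The part of these differences in the results was not tested. Leaving out 1 library leaves a lone sample in its group, so single genes are then given by effect size, without a p-value.

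The promoter windows of the members come first, because GPNMB is a known target of the MiT/TFE transcription factors, which bind M-box and E-box motifs. RefSeq windows (GRCr8, 250 bases before to 50 after each start) were found for 10 of 10 members, in 12 windows. Each was searched on both strands for the E-box CACGTG, the M-box TCATGTG and the AP-1 motif TGANTCA. These letters occur in 6.42%, 3.56% and 7.33% of 33469 rat windows of the same kind. The 3 windows of Gpnmb, Apoe and Abca1 that hold an M-box or E-box are shown 5′ to 3′ on the gene's strand, with the matches in capitals.
Gpnmb, chr4:79340878-79341177, plus strand: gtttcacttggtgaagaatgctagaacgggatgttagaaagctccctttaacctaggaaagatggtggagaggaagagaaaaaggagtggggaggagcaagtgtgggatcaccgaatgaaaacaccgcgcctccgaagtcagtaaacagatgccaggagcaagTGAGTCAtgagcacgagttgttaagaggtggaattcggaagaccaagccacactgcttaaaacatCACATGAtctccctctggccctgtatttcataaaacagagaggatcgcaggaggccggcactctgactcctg
Apoe, chr1:88485767-88486066, minus strand: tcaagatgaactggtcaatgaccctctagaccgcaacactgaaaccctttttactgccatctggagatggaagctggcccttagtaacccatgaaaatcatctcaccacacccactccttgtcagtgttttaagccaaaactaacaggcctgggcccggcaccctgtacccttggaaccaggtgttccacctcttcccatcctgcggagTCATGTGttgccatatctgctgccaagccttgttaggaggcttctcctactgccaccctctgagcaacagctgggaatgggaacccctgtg
Abca1, chr5:72596424-72596723, minus strand: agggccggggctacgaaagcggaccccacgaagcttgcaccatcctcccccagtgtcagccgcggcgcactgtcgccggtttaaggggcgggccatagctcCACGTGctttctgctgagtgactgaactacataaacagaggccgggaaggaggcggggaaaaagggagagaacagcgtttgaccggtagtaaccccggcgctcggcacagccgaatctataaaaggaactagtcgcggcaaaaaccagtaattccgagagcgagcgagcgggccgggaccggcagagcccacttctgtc

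The Gpnmb window held the M-box in reverse complement, at position -22, and an AP-1 motif at -87, where positions give the first base of the match relative to the start of the transcript. Of the 3 Apoe windows, the one shown lies furthest upstream, and it held the M-box at -41 from its own start. In the Abca1 window the E-box lay at -149. The Tyro3 window held an AP-1 motif at -206. None of these matches overlapped another. No match was found in the windows of Gas6, Pros1, Axl, Mertk, Mfge8 and Lrp1, nor in the other Apoe windows. A match describes the letters only and says nothing of a factor bound there.

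Gpnmb had the largest fold change of the members. It measured 99.6 and 101 CPM in Lenti-GFP and 183 and 194 CPM in Lenti-AS cells. Both Lenti-AS samples were higher, and the gap of 81.8 CPM between the groups exceeded the differences of 1.64 and 11.0 CPM within them. The mean went from 100.4 ± 1.16 to 188.5 ± 7.80 CPM (SD, n = 2 each), a log2 fold change of 0.91 with an SE of 0.06, or 1.88-fold. Among all tested genes, 227 had a higher log2 fold change.

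Of the TAM ligands, Gas6, which binds all 3 receptors, was higher in Lenti-AS cells, and Pros1, which encodes protein S, overlapped between the groups. Gas6 measured 82.7 and 78.5 CPM in Lenti-GFP and 112.2 and 112.1 CPM in Lenti-AS cells. The groups were apart by 29.4 CPM, against differences within them of 4.24 CPM (Lenti-GFP) and 0.119 CPM (Lenti-AS). The log2 fold change of Gas6 was 0.48 with an SE of 0.06, or 1.39-fold.

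Pros1 measured 54.8 and 53.5 CPM in Lenti-GFP and 53.9 and 53.7 CPM in Lenti-AS cells, so the groups overlapped. In edgeR's quasi-likelihood test over all genes its log2 fold change was -0.0087 with an SE of 0.07 (Benjamini-Hochberg adjusted p = 0.953). The 95% interval, from 0.889-fold to 1.11-fold, gives the changes these samples leave possible. The reads of Gas6 per read of Pros1 were 1.51 and 1.47 in Lenti-GFP and 2.08 and 2.09 in Lenti-AS cells. Since Gas6 was chosen for its higher counts in these samples, the ratio only restates that choice.

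No difference was detected for the 3 receptors. Axl, the receptor that prefers GAS6, measured 149.6 and 146.7 CPM in Lenti-GFP and 151.4 and 141.3 CPM in Lenti-AS cells. The Lenti-AS samples enclosed the Lenti-GFP samples, and the log2 fold change was -0.017 with an SE of 0.06 (edgeR adjusted p = 0.888). Its interval ran from 0.895-fold to 1.09-fold. Mertk, the receptor best known for engulfing dying cells, measured 106.6 and 101.0 CPM in Lenti-GFP and 94.0 and 101.9 CPM in Lenti-AS cells. These overlapped as well, with a log2 fold change of -0.084, an SE of 0.07 (edgeR adjusted p = 0.508) and an interval from 0.839-fold to 1.06-fold. Tyro3 measured 55.8 and 53.5 CPM against 52.6 and 54.9 CPM. The groups overlapped for Tyro3 too, with a log2 fold change of -0.025 with an SE of 0.07 (edgeR adjusted p = 0.865), with an interval from 0.874-fold to 1.11-fold.

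Mfge8 encodes a secreted protein that bridges phosphatidylserine to integrins. It had the fewest reads of the members, 930 to 1329 a sample, and measured 12.6 and 12.5 CPM in Lenti-GFP and 15.2 and 12.4 CPM in Lenti-AS cells. One Lenti-AS sample was higher and the other was level with the controls. The log2 fold change was 0.14 with an SE of 0.12 (edgeR adjusted p = 0.540), and it became -0.0194 without Lenti-AS replicate 1.

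**Figure D1:**
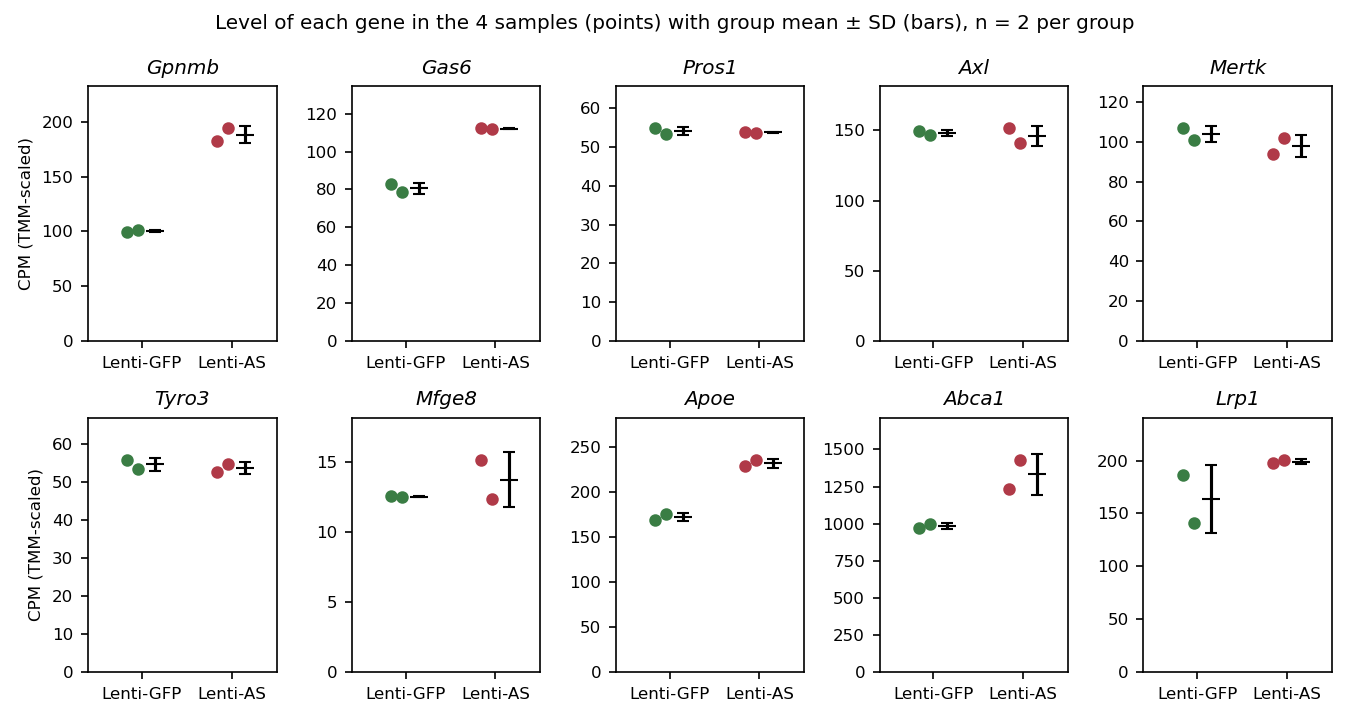
Level of each member in CPM (TMM-scaled, linear axes starting at 0) in the 2 Lenti-GFP and 2 Lenti-AS samples, 1 point a sample, with the group mean and SD beside the points. Gpnmb, Gas6, Apoe, Abca1 and Lrp1 have the Lenti-AS points above the Lenti-GFP points, and Pros1, Axl, Mertk, Tyro3 and Mfge8 overlap.

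The lipid handling members were all higher in both Lenti-AS samples. The same held for 27.7% of all tested genes, and Apoe was chosen for its rise. Apoe, which encodes the apolipoprotein that carries cholesterol between glia and neurons, measured 169.0 and 175.5 CPM in Lenti-GFP and 228.2 and 235.2 CPM in Lenti-AS cells. The gap of 52.8 CPM exceeded the differences of 6.46 and 7.0 CPM within the groups. The log2 fold change of Apoe was 0.43 with an SE of 0.05, or 1.35-fold.

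Abca1, the exporter that loads cholesterol onto apolipoproteins, measured 973 and 997 CPM in Lenti-GFP and 1236 and 1429 CPM in Lenti-AS cells. The Lenti-AS samples were both higher, with a gap of 238 CPM against 194 CPM between them. Its fold of 1.35 equalled that of Apoe at this precision, yet with a larger spread it missed the threshold (log2 fold change 0.44, SE 0.08, edgeR adjusted p = 0.0576). The call depended on the method. In DESeq2 the adjusted p was 2.58e-05 and in edgeR without a low-count filter it was 0.0338, both of which gave a call. The other alternatives that used all 4 libraries gave no call. Their adjusted p ran from 0.0520 (edgeR, upper-quartile factors) to 0.0877 (edgeR with a replicate block). Leaving out 1 library at a time gave log2 fold changes of Abca1 from 0.33 to 0.54.

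Lrp1, a large endocytic receptor for apolipoprotein E and for myelin debris, measured 186.7 and 140.8 CPM in Lenti-GFP and 197.2 and 200.5 CPM in Lenti-AS cells. The groups did not overlap, but the gap of 10.5 CPM was smaller than the 45.8 CPM between the Lenti-GFP samples. The log2 fold change of 0.28 had an SE of 0.13 (edgeR adjusted p = 0.266) and an interval from 0.977-fold to 1.51-fold. It rested on 1 control, being 0.50 without Lenti-GFP replicate 1 and 0.092 without Lenti-GFP replicate 2. Without Lenti-AS replicate 1 or 2 the log2 fold change of Lrp1 was 0.29 or 0.27.

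A gene was called where the adjusted p was under 0.05 and the fold at least 1.3. Of the 12446 genes, 1.98% were called, 1.31% higher and 0.667% lower in Lenti-AS cells. An unadjusted p under 0.05 was reached by 21.8% of all genes, 12.5% with a higher and 9.37% with a lower level in Lenti-AS cells. Of the 10 members, 3 were called higher, those picked for their rise, from which nothing is read. Without Lenti-GFP replicate 1 or without Lenti-GFP replicate 2, edgeR called 0 of the 10. Of the 7 listed for their role, 0 were called by edgeR, with 1, Abca1, at an unadjusted p under 0.05. DESeq2, which called 488 of all genes higher and 139 lower, called Abca1, and limma-voom called 0 of the 7. The groups did not overlap in 2 of these 7, both higher in Lenti-AS cells, and in 0 lower, against 27.7% of all genes with both Lenti-AS values higher and 27.2% with both lower. Their median log2 fold change was -0.0087, beside 0.0071 over all tested genes.

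**Figure D2:**
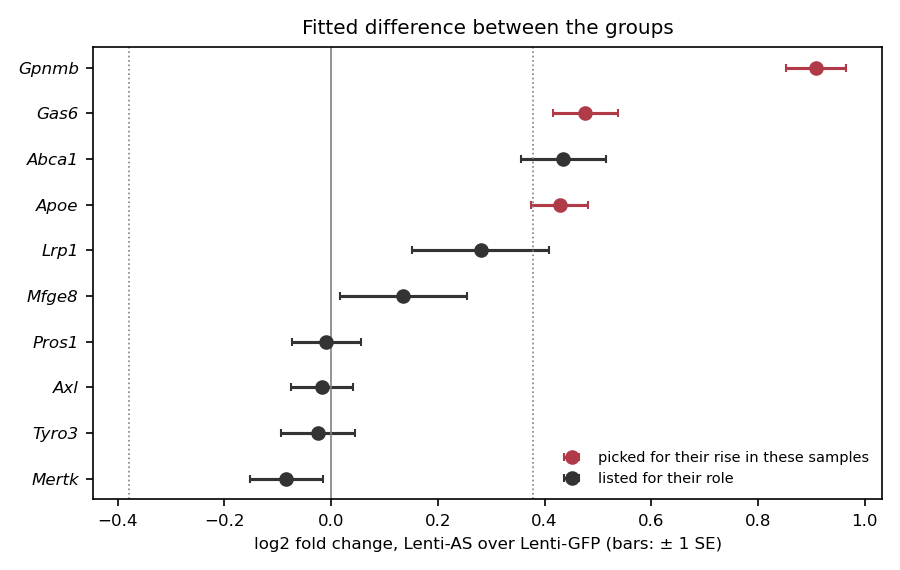
Log2 fold change (Lenti-AS over Lenti-GFP) of each member, with bars of 1 SE either side, dotted lines at the minimum fold of 1.3 and red for the members chosen by their rise. Gpnmb lies furthest to the right at 0.91, Gas6, Apoe and Abca1 lie between 0.43 and 0.48, and the bars of Pros1, Axl and Tyro3 cross 0.

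The genes whose levels over the 4 samples followed Gpnmb, Apoe or Gas6 most closely were ranked by Euclidean distance, on log2(CPM + 1) values centred on each gene's mean, among the 10250 genes whose mean reached 1 CPM. For Gpnmb the 5 nearest were Usp54 (0.0693), Axin2 (0.0885), Prkcb (0.118), Lgi3 (0.151) and Fas (0.151). For Apoe they were Rab32 (0.0221), Dlgap5 (0.0292), Renbp (0.0302), E2f1 (0.0306) and Hist1h2ah (0.0306), and for Gas6 Hist1h2bk (0.0151), Melk (0.0285), Kif2c (0.0288), Kif11 (0.0381) and Pam (0.047). The distances describe only these 4 samples.

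Genes around these pathways were grouped into 7 lists of 119 genes, of which 100 were tested. EdgeR called 2 higher, Rhog and Npc1, and 1 lower, Arl4c, beside 1.31% and 0.667% of all genes. The groups did not overlap in 34 of the 100 that were higher in Lenti-AS cells and in 28 that were lower, beside 27.7% and 27.2% of all genes. An unadjusted p under 0.05 was reached by 23 that were higher and 15 that were lower, and the median log2 fold change was 0.065. Leaving out 1 library at a time gave log2 fold changes of 0.46 to 0.61 for Rhog, 0.60 to 0.66 for Npc1 and -0.68 to -0.61 for Arl4c.

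Other phosphatidylserine receptors and bridging proteins had 11 tested genes, with 0 called by edgeR, DESeq2 or limma-voom and 1 higher and 3 lower at an unadjusted p under 0.05 (21.8% of all genes in either direction). The median of this list was -0.064. Itgb3, an integrin subunit that binds bridging proteins, had a log2 fold change of -0.28 with an SE of 0.07 (edgeR adjusted p = 0.104). Thbs1, encoding thrombospondin 1, had one of -0.31 (edgeR adjusted p = 0.119). Without Lenti-AS replicate 1 or 2 the log2 fold change of Thbs1 was -0.39 or -0.22.

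Of 14 engulfment genes, edgeR called 1, Rhog, and DESeq2 called 2, Rhog and Rac1. Of all 12446 tested genes, edgeR called 1.31% higher and DESeq2 called 488 higher. Rhog, a small GTPase that acts upstream of RAC1 in engulfment, measured 36.6 and 39.9 CPM in Lenti-GFP and 58.6 and 52.6 CPM in Lenti-AS cells. It rose by a log2 fold change of 0.54 with an SE of 0.09 (edgeR adjusted p = 0.0463). Rac1 itself, which drives the actin cup, measured 36.5 and 36.3 against 55.2 and 46.1 CPM. Its groups were apart, but its log2 fold change of 0.48 missed the threshold in edgeR (adjusted p = 0.0755) and passed it in DESeq2 (adjusted p = 0.000698). Without Lenti-AS replicate 1 or 2 the log2 fold change of Rac1 was 0.34 or 0.60.

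Among 13 genes of ligand maturation, receptor shedding and TAM signalling, 0 were called by the main edgeR fit. An unadjusted p under 0.05 was reached by 1 higher and 1 lower gene, beside 12.5% and 9.37% of all genes. DESeq2 and limma-voom each called Pik3r1, a regulatory subunit of the PI3 kinase that acts downstream of TAM receptors. Pik3r1 measured 55.6 and 55.4 CPM in Lenti-GFP and 82.5 and 72.7 CPM in Lenti-AS cells, a log2 fold change of 0.48 with an SE of 0.08 (edgeR adjusted p = 0.0506). Other edgeR settings on all 4 libraries called Pik3r1 too (edgeR adjusted p from 0.0396 to 0.0499), except the replicate block (edgeR adjusted p = 0.101). Without Lenti-AS replicate 1 or 2 the log2 fold change of Pik3r1 was 0.39 or 0.57. Vkorc1, which recycles the vitamin K needed to make active GAS6 and protein S, had a log2 fold change of -0.20 (edgeR adjusted p = 0.174).

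Of 14 lipoprotein receptors, 0 were called by edgeR, DESeq2 or limma-voom. An unadjusted p under 0.05 was reached by 2 higher and 2 lower ones, beside 12.5% and 9.37% of all genes. Lrp1b was at most 0.401 CPM in any sample, and its log2 fold change of -2.51 had an SE of 0.59 (edgeR adjusted p = 0.0939), and it was called lower without Lenti-AS replicate 2 (edgeR adjusted p = 0.00712).

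Abca1 is a target of the liver X receptors (LXR). The 19 tested genes of efflux, apolipoproteins and LXR gave 1 call in edgeR, which was lower, beside 0.667% of all genes. In this list 11 genes were above 0 and 8 below. An unadjusted p under 0.05 was reached by 5 higher and 2 lower ones, beside 12.5% and 9.37% of all genes. Arl4c, a small GTPase that is another LXR target, measured 17.7 and 18.6 CPM in Lenti-GFP and 11.4 and 11.7 CPM in Lenti-AS cells. It fell, with a log2 fold change of -0.65 and an SE of 0.08 (edgeR adjusted p = 0.0276). Mylip, an LXR target that encodes a ubiquitin ligase, had a log2 fold change of -0.22 (edgeR adjusted p = 0.124). Abcg1, the partner exporter of Abca1, was at most 0.158 CPM in any sample, and Nr1h3, encoding LXR alpha, at most 0.653 CPM. Neither depth could show a moderate change, with intervals of 0.262-fold to 1.39-fold for Abcg1 and 0.438-fold to 1.49-fold for Nr1h3. Nr1h2, encoding LXR beta, was named after its values were seen. It measured 48.1 and 42.6 CPM in Lenti-GFP and 52.6 and 55.3 CPM in Lenti-AS cells. The log2 fold change of Nr1h2 was 0.25 with an SE of 0.08 (edgeR adjusted p = 0.172). Apod, another apolipoprotein of peripheral nerve, measured 6.89 and 7.39 CPM against 12.2 and 10.2 CPM, a log2 fold change of 0.65 (edgeR adjusted p = 0.0688). Apod was called in DESeq2 (adjusted p = 0.00178). Without Lenti-AS replicate 1 or 2 its edgeR log2 fold change was 0.52 or 0.77. Pltp, an LXR target that encodes phospholipid transfer protein and was named after its values were seen, had a log2 fold change of 0.53 (edgeR adjusted p = 0.142). Srebf1 and Lpcat3 of the same list, likewise named afterwards, had log2 fold changes of 0.10 and 0.016 (edgeR adjusted p = 0.443 and 0.924).

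Of 16 intracellular lipid genes, Npc1, which exports cholesterol from lysosomes, was the 1 called, beside 1.98% of all genes. It measured 48.7 and 50.4 CPM in Lenti-GFP and 78.1 and 75.2 CPM in Lenti-AS cells, a log2 fold change of 0.63 with an SE of 0.07 (edgeR adjusted p = 0.0237). A pair of others passed the adjusted p under the minimum fold. Tspo, a cholesterol-binding protein of the outer mitochondrial membrane, had a log2 fold change of -0.31 (edgeR adjusted p = 0.0466). Soat1, the enzyme that esterifies cholesterol for storage and which was named after its values were seen, had one of 0.36 (edgeR adjusted p = 0.0499). Lipa, the lysosomal acid lipase, measured 47.8 and 49.3 against 44.7 and 43.4 CPM (edgeR adjusted p = 0.278).

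The relatives and partners of GPNMB, the MiT/TFE factors and lysosomal genes made up 13 tested genes. Their median log2 fold change was 0.22 and 10 were above 0, with 7 higher and 2 lower in Lenti-AS cells at an unadjusted p under 0.05, beside 12.5% and 9.37% of all genes. EdgeR and limma-voom called 0 of the 13 and DESeq2 called 1, Mitf. Lamp1, a major protein of the lysosomal membrane, measured 604 and 572 CPM against 782 and 739 CPM, and its log2 fold change of 0.37 passed the adjusted p but not the minimum fold (edgeR adjusted p = 0.0452). Without Lenti-AS replicate 1 or 2 its log2 fold change was 0.33 or 0.41. Mitf, which regulates Gpnmb in pigment cells, measured 12.8 and 13.8 CPM in Lenti-GFP and 17.9 and 18.8 CPM in Lenti-AS cells. Its log2 fold change was 0.46 with an SE of 0.09 (edgeR adjusted p = 0.0594), and 0.50 or 0.42 without Lenti-AS replicate 1 or 2. Tfe3 and Tfeb, its relatives, had log2 fold changes of 0.30 and 0.62 (edgeR adjusted p = 0.150 and 0.187). Without Lenti-AS replicate 1 these were 0.17 and 0.32, and without Lenti-AS replicate 2 they were 0.42 and 0.88. Sdc4, a heparan sulfate proteoglycan reported to bind GPNMB, had one of -0.31 (edgeR adjusted p = 0.0520).

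**Figure D3:**
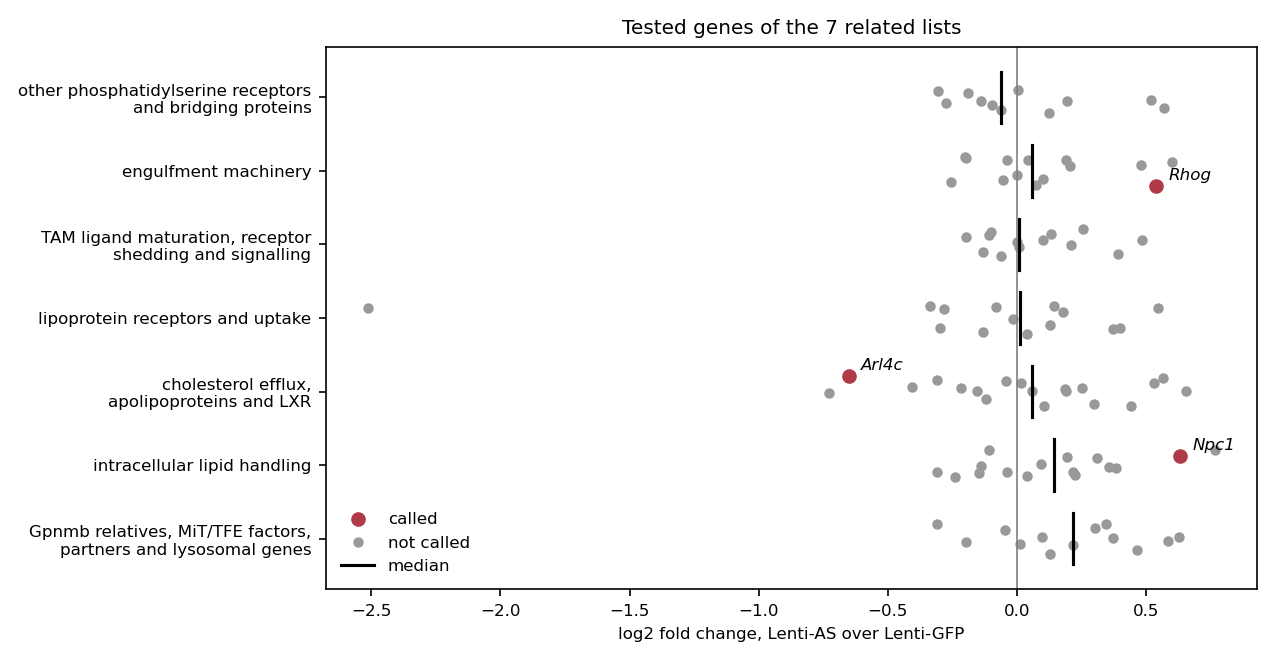
Log2 fold change (Lenti-AS over Lenti-GFP) of the 100 tested genes of the 7 related lists, 1 point a gene with a line at each list's median. The medians lie between -0.064 and 0.22, and the called genes are Rhog, Npc1 and Arl4c.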

How the data were processed

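The counts were deposited by the authors as 1 table of whole reads per gene for the 4 libraries, made from 50 bp paired reads and the rat genome rn6. Per the labels and the methods, reads were assigned to RefSeq exons with featureCounts. The methods name hisat2 as the aligner and the submitters' processing notes name GSNAP. Versions, strand setting and treatment of multi-mapping reads were not given in the sources used here. A repeated header row was dropped. A gene entered the test when 2 or more samples held 10 or more of its reads. The test was that of edgeR 4.0.16 (R 4.3.3), with TMM factors, quasi-likelihood F-tests and Benjamini-Hochberg adjustment over all tested genes, and the script was checked on simulated data. Alternatives used DESeq2 1.42.0 and limma 3.58.1. Transcript lengths were not used here, so levels were not compared between genes. Protein sequences were not used here. All members were named. From each related list the called genes were named (up to 4 in each direction by adjusted p), then the smallest unadjusted p until 2 were named, and always Abcg1, Nr1h3, Mylip, Npc1, Lipa, Mitf, Tfeb, Tfe3 and Pmel (Pmel was not analysed here, and 1 further gene is not reported here). The members and lists were chosen with earlier results of these data known. With 2 samples against 2, an exact permutation test of 1 value cannot go below p = 0.333, so none was used.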

Additional observations from a re-analysis of the deposited data

How the results depend on the processing

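Across alternatives Gpnmb, Gas6 and Apoe kept their direction, with log2 fold changes of 0.87 to 0.95, 0.44 to 0.52 and 0.40 to 0.46. Since these genes were chosen for their rise in the same samples, the kept direction only restates that choice. Over all genes 163 were called higher and 83 lower, against 488 and 139 in DESeq2. Leaving out 1 library at a time gave 0 to 1266 higher and 1 to 271 lower, with the lone sample assumed to vary like the other group. Of the members, 3 were called higher, and leaving out 1 library gave 0 to 4, the 0 coming from either Lenti-GFP library. Of the related genes, 2 were called higher, and DESeq2 gave 6, upper-quartile factors 4, library totals 5 and no minimum fold 4, while 1 was called lower, against 2 with no minimum fold. Without 1 library these were 0 to 18 and 0 to 4. Small log2 fold changes turned. With upper-quartile factors Pros1 became 0.0021. Scaling by library totals, under which the all-gene median was 0.039, gave 0.0231 for Pros1, 0.0141 for Axl and 0.0072 for Tyro3. Dropping single libraries gave -0.0249 to 0.0123 for Pros1, -0.0682 to 0.0315 for Axl, -0.0558 to 0.0100 for Tyro3, -0.0194 to 0.27 for Mfge8 and -0.59 to 0.0420 for Nr1h3. The cause was not tested.

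The replicate numbers are shared between the groups, but nothing in the labels ties a number to a culture, and the deviations of samples with the same number were uncorrelated (r = -0.0176 across genes). A fit with the replicate block, which costs 1 of 2 residual degrees of freedom, called 3 genes higher and 14 lower, 1 member, which was among those chosen for their rise and so supports nothing, and 0 related genes in either direction.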

Other observations

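The nearest tested gene on each side of a member was taken from the GRCr8 gene order. Rasa3, before Gas6, was called higher in Lenti-AS cells with a log2 fold change of 0.45 (edgeR adjusted p = 0.0432), beside 1.31% of all genes. Tfdp1, after Gas6, had one of 0.0078, and Tmem255b, which overlaps Gas6, was not tested. Tmem176a before Gpnmb had a log2 fold change of 0.59 (edgeR adjusted p = 0.0549) and Malsu1 after it one of -0.042. The nearest tested genes beside Apoe, Apoc1 and Tomm40, had log2 fold changes of -0.12 and 0.19. Those beside the members listed for their role were not called.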
